A study of Mus musculus with 6 samples.

Results

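The nuclear genes for subunits of the 5 complexes of the mitochondrial respiratory chain were followed in mouse glioma tumours. Members were the rows of the count table whose GENCODE M21 symbol was Cyc1 or began with Nduf (letters a, b, c, s or v with a number), Sdha to Sdhd, Uqcr, Cox with a number from 4 to 8, or Atp5. The rule matched 98 of 54532 rows, and 8 with -ps in the symbol were left out, which gave 90 members. Complex I held 40 of them, complex II 4, complex III 9, complex IV 19 and complex V 18. Protein-coding genes made up 86 of the members and processed pseudogenes without -ps in the symbol the other 4 (Ndufa11b, Ndufb4c, Ndufs6b and Cox6c2). Reads were found for 87 members, and 82 passed the filter on low counts and were tested (39, 4, 9, 13 and 17 in complexes I to V). The 8 not tested were Ndufa11b, Cox4i2, Cox6b2, Cox6c2, Cox7b2, Cox8b, Cox8c and the second of 2 IDs named Atp5o, which had no reads. The rule used no measured values.

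The tumours grew under the skin of Kunming mice, an outbred stock, after injection of G422 mouse glioblastoma cells. Cells of 3 tumours carried shNgb, a short hairpin RNA named for neuroglobin, an oxygen-binding globin of neurons, and cells of the other 3 carried the vector shVec. Both constructs were delivered by lentivirus, both groups are labelled untreated, and no further genotype, age or time is given. The design text speaks of Ngb rather than of a hairpin; the sample labels were followed. The source is named G422 for every tumour, whereas the cell line field gives each tumour a different number after the letter G. The promoter of the hairpin, the number of clones and whether each tumour came from its own mouse are not stated. The p-values thus refer to the spread among the tumours sampled, which may be in part technical. RNA came from whole tumours, which hold host cells beside the G422 cells, and fewer cells of a type and less RNA per cell cannot be told apart.

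The respiratory chain passes electrons from NADH (through complex I) and from succinate (through complex II) to coenzyme Q, then through complex III and cytochrome c to complex IV, which reduces oxygen. Complexes I, III and IV pump protons across the inner mitochondrial membrane, and complex V, the ATP synthase, uses their return to make ATP. All complexes except complex II also hold subunits encoded by the mitochondrial genome, and gliomas are known for high glucose use.

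Ngb, the gene named in the labels, was scarce in every library. It had 28, 23 and 13 reads in shVec 1, 2 and 3 and 18, 19 and 11 reads in shNgb 1, 2 and 3. Its level was 1.03 ± 0.326 CPM (counts scaled to a common library size by TMM; SD, n = 3) in shVec and 0.690 ± 0.237 CPM in shNgb. The groups overlapped, with a log2 fold change (shNgb minus shVec, in all that follows) of -0.59, a standard error (SE) of 0.42 and an edgeR adjusted p of 0.9997. Libraries held 19630319 to 25620667 reads. Of 8 glial and neural progenitor markers, Vim (4607 to 5220 CPM), Nes (383 to 545 CPM) and Sox2 (13.8 to 22.6 CPM) were present, whereas Olig2 and Aqp4 had 0 reads in every library and Gfap, S100b and Fabp7 had at most 8. Nes had 477, 545 and 496 CPM in shVec and 439, 383 and 420 CPM in shNgb, without overlap. Its log2 fold change was -0.29 (SE 0.08, edgeR unadjusted p 0.0065, adjusted p 0.9997). The groups overlapped in Vim and Sox2. Summed markers of other cells ranged from 70.7 to 119 CPM in shVec and from 85.4 to 178 CPM in shNgb for macrophages (6 genes), and from 252 to 372 and 383 to 703 CPM for fibroblasts (5 genes); the part of these cells in the values below was not tested. The 8 skeletal muscle markers summed to 25.4 CPM in shVec 2 and to 7.57 to 8.81 CPM in the other tumours.

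Promoter sequence is shown for 3 members, since genes of the chain are known targets of the factor NRF1, whose site recurs in front of them, and of YY1. RefSeq windows on GRCm38.p6, from 250 bases before to 50 bases after the start, were available for 68 of the 85 coding symbols. The windows are written 5′ to 3′ on the strand of the gene, with matches to the motifs in capitals. Sdha (chr13:74350191-74350490, minus strand) held 3 NRF1 matches, Cox6a1 (chr5:115348909-115349208, minus strand) held 2 NRF1 matches and 1 ETS match, and Ndufa3 (chr7:3617123-3617422, plus strand), the member of smallest p below, held 1 YY1 match after the start.
Sdha: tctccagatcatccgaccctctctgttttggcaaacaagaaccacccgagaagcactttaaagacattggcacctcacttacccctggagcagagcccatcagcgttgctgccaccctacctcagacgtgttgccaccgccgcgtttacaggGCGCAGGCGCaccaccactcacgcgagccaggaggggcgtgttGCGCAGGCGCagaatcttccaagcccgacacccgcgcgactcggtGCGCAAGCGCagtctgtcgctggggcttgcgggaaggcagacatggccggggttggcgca
Cox6a1: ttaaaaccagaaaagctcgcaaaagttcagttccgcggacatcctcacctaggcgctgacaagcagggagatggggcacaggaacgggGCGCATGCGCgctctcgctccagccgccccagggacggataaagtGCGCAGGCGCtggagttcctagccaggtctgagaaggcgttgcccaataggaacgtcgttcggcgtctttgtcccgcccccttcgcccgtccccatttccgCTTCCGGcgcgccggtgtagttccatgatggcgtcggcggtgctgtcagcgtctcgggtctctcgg
Ndufa3: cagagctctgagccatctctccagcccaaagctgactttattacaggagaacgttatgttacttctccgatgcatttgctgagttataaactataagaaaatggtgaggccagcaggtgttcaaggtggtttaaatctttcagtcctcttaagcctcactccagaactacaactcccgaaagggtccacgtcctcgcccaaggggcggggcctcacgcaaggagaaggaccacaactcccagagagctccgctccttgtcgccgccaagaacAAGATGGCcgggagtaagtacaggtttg

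Both strands were searched for the NRF1 motif (GCGC, any base, then TGCGC), AANATGGC (YY1), CCGGAAG (ETS) and ACGTGC or GCGTGC (hypoxia response element). The NRF1 motif was in 25.0% of the member windows and in 11.3% of those of 9804 other protein-coding genes tested. YY1 letters were in 25.0% against 9.87%, ETS letters in 23.5% against 20.01%, and those of the hypoxia response element in 25.0% against 29.5%. Over all 27025 genes with a window the shares were 5.19% (NRF1), 6.96% (YY1), 9.93% (ETS) and 18.1% (hypoxia response element). Of 18 YY1 matches in member windows, 10 lay after the start, and NRF1 and hypoxia response element matches overlapped in 5 windows. Among the complexes, YY1 letters were in 12 of 32 windows of complex I and in 1 of 13 of complex IV, and NRF1 letters in 6 of 15 of complex V and in 1 of 13 of complex IV. A match is a description of the letters only.

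The members were abundant and their levels spread widely between subunits. Their reads made up 0.916% to 0.963% of a library, and those of complex V alone made up 0.404% to 0.425%. The 13 messenger RNAs of the mitochondrial genome took 1.25% to 1.43%. Their means in shVec spanned 0.742 CPM (mt-Atp8) to 7370 CPM (mt-Co1), with mt-Co2 at 32.9 and mt-Co3 at 11.0 CPM. Whether reads that also fit copies elsewhere in the genome were left out was not tested. The share thus covers counted reads only. Levels between genes are given as the authors' FPKM (reads scaled by exon length and library size), as the median of the 6 tumours. Atp5b, the catalytic β subunit of the ATP synthase, stood highest at 332 FPKM, followed by Cox8a (330), Atp5a1, the α subunit (297), Cox6a1 (244), Cox4i1 (233) and Cox7c (175). On this scale the highest subunit was Ndufa2 (140 FPKM) in complex I, Sdhd (70.3) in complex II and Uqcr10 (114) in complex III. Atp5b and Cox8a did not differ beyond their spread, with ranges over tumours of 302 to 344 and 307 to 344 FPKM. The median subunit had 31.8 FPKM in complex I, 46.4 in complex II, 84.6 in complex III, 88.7 in complex IV and 53.7 in complex V. The order of these medians holds for the FPKM scale only and can change with the length used. The lowest tested coding members were Cox7a1 (1.15), Cox6a2 (1.40) and Ndufb2 (1.79).

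**Figure D1:**
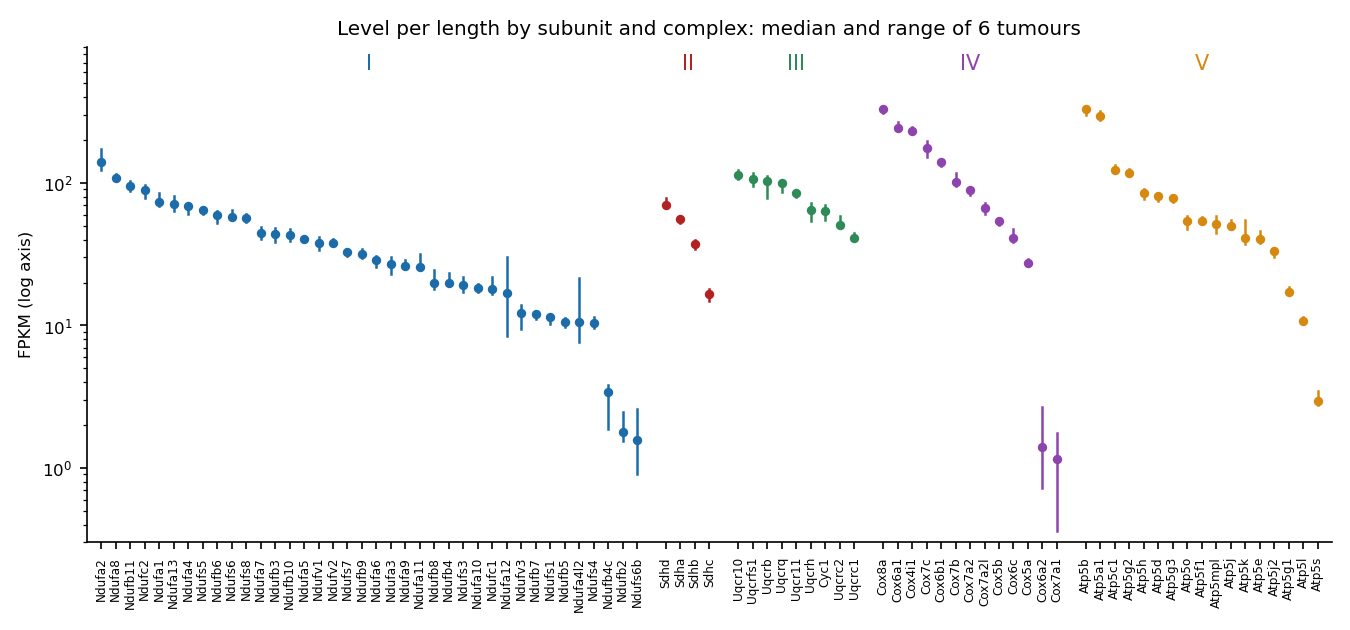
Level per length (FPKM, log axis) of 81 of the 82 tested members, grouped by complex and ordered by level; points are medians and lines the range of the 6 tumours. Levels ran from 1.15 FPKM (Cox7a1) to 332 FPKM (Atp5b), and the line of Ndufa12 (8.49 to 30.04 FPKM) is the longest among members with a median above 10 FPKM.

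The order of the levels rests in part on the length by which reads were divided. The authors' FPKM used the union of all annotated exons for 73 of the 78 members with more than 500 reads (within 0.05 of the median ratio between the length implied and that union). For a gene with a long alternative exon this length far exceeds that of its main transcript. Atp5l, a small membrane subunit of complex V, has 6443 bases of exons and a principal transcript of 544 bases, and moved from rank 73 by FPKM to rank 28 by reads per kilobase of that transcript. Cox6c moved from rank 46 to 9, Uqcrq from 16 to 3 and Atp5g1 from 67 to 23. Ndufb2, in contrast, stayed low at ranks 79 and 73. By CPM per kilobase of the principal transcript, the highest subunit of complex I was Ndufa4 (212), and Ndufa2 had 141. In complex II Sdha (79.5) then stood above Sdhd (70.9), and in complex III Uqcrq (453) above Uqcr10 (154). The levels of members and the medians of complexes above are therefore stated for the FPKM scale only.

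No subunit of any complex passed the test between shNgb and shVec. With edgeR, 0 of 15203 genes were called at an adjusted p under 0.05 (0%), and 0 of the 82 members, whose adjusted p was 0.9997 throughout. At an unadjusted p under 0.05, 1 member (1.22%) stood beside 392 genes (2.58%; 1.35% higher and 1.22% lower in shNgb). DESeq2 called 5 genes and 0 members, with 0 members at an unadjusted p under 0.05, and limma-voom called 0 genes and 0 members, with 1 member at that p. All 3 shNgb tumours lay above all 3 shVec tumours in 3 members (Ndufa3, Ndufa4 and Ndufa6), or 3.66% against 3.67% of all genes tested, and below them in 0 members against 3.43%. The log2 fold change was above 0 in 53 of the 82 members (64.6%) and in 50.9% of all genes. Without shNgb 1 it was above 0 in 41 members. At a mean of 20 CPM or more, it was above 0 in 65.3% of members and in 46.5% of genes. At that level, all 3 shNgb tumours lay above all 3 shVec tumours in 4% of members and 2.28% of genes. They lay below in 0% and 3.57%.

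The intervals were narrow, so the size of a difference that these tumours leave possible can be stated. The median log2 fold change over members was 0.01 and over all genes 0.00. The 95% confidence interval lay within 1.25-fold either way in 64 of the 82 members and within 1.5-fold in 75 (91.5%), against 59.8% of all genes tested. Members are abundant, and among genes at a mean of 20 CPM or more the shares were 98.7% (74 of 75 members) and 93.6%. The SD of log2 CPM over the 6 tumours had a median of 0.085 in those members and of 0.115 in all genes at that level. It exceeded 0.3 in 6 members, of which Ndufa12 (0.71) was the only one above 20 CPM. The others were Cox7a1, Ndufa4l2, Cox6a2, Ndufs6b and Ndufb4c, all with few reads or, for Ndufa4l2, 8.47 to 23.6 CPM.

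**Figure D2:**
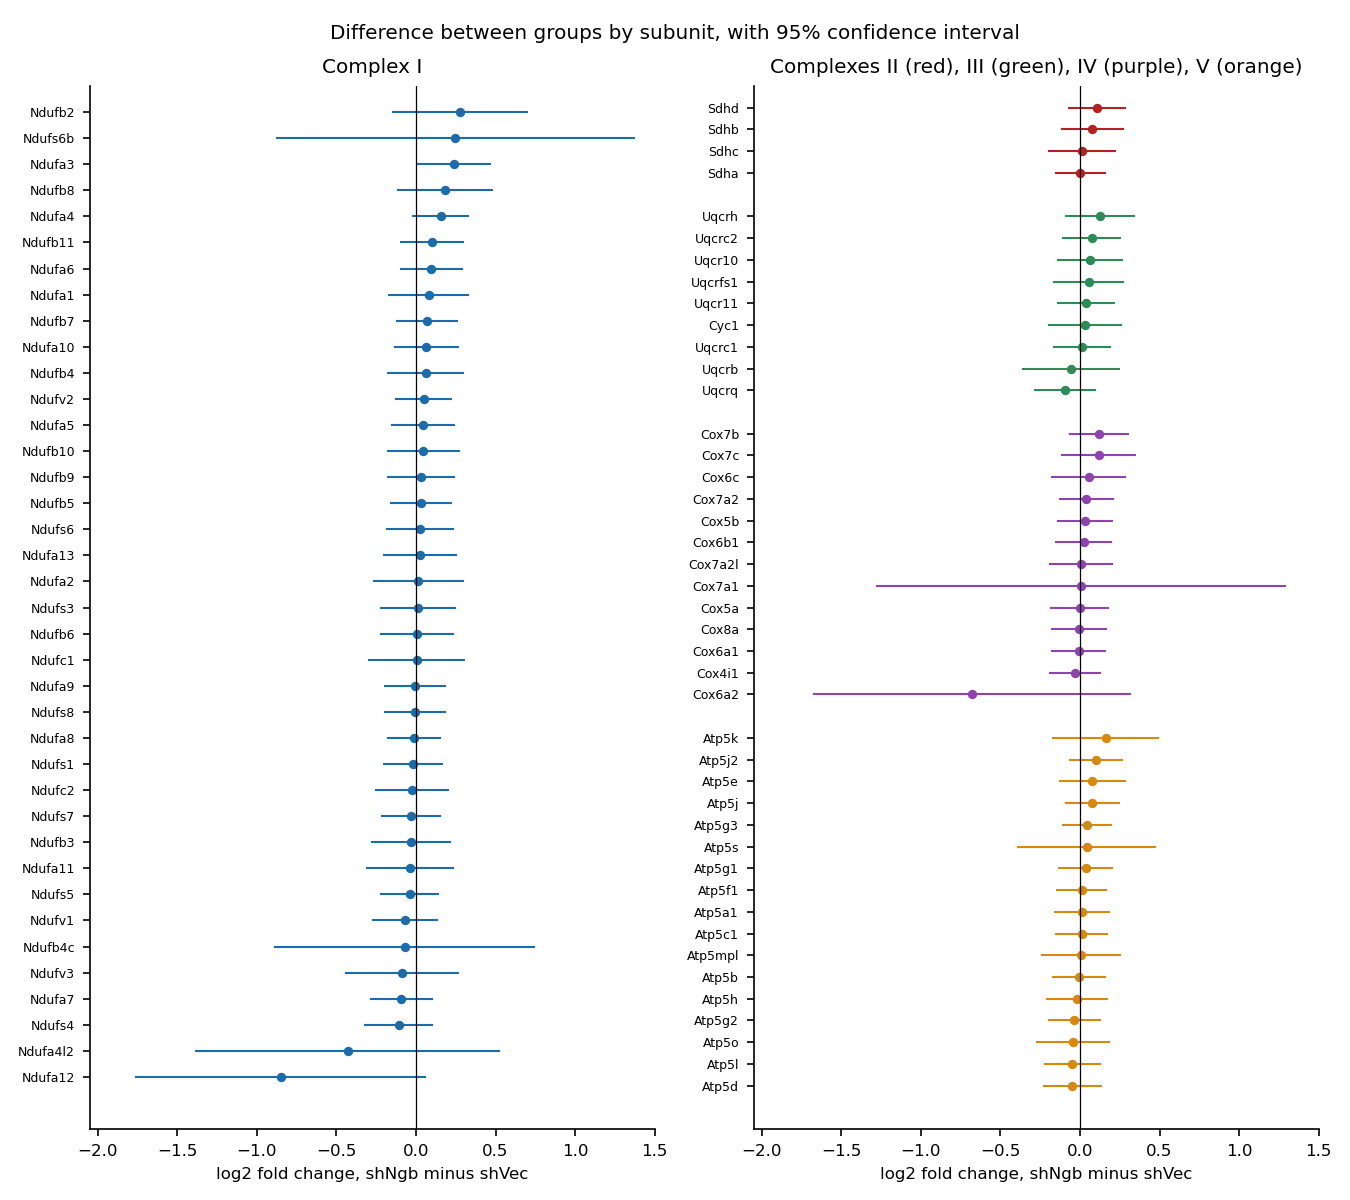
Log2 fold change (shNgb minus shVec) of 81 of the 82 tested members with its 95% confidence interval, complex I on the left and complexes II to V on the right. Of all 82 values 66 lie within 0.1 of 0, and the widest intervals belong to Cox7a1, Ndufs6b, Cox6a2, Ndufa4l2, Ndufa12 and Ndufb4c.

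Complex I takes electrons from NADH through a core of subunits that carry flavin and iron-sulfur clusters. The NADH-oxidizing core (Ndufv1, Ndufv2, Ndufs1) ranged in log2 fold change from -0.07 to 0.05, and all 3 intervals lay within 1.25-fold. Ndufv1, which binds NADH and flavin, had 106, 94.99 and 97.3 CPM in shVec and 102, 85.8 and 96.3 CPM in shNgb, with the groups interleaved. Of the core subunits nearer to coenzyme Q, Ndufs3 had 0.01 (SE 0.10), Ndufs7 -0.03 (SE 0.08) and Ndufs8 -0.0043 (SE 0.08). Ndufs8, which holds iron-sulfur clusters, had 55.9, 57.1 and 53.4 CPM against 58.8, 52.2 and 54.95 CPM. Its highest and its lowest value were both in shNgb.

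The 30 coding members named for complex I outside its core, Ndufa4 and Ndufa4l2 among them, ranged more widely, from -0.85 to 0.28. Ndufa3, a small accessory subunit (chr7:3617373-3620327 on GRCm38), had 27.0, 24.9 and 23.5 CPM in shVec and 28.8, 29.2 and 31.0 CPM in shNgb. Every shNgb tumour thus lay above every shVec tumour, with means of 25.1 ± 1.76 and 29.7 ± 1.15 CPM (SD, n = 3). The log2 fold change was 0.24 (SE 0.10, interval 0.01 to 0.46), with an unadjusted p of 0.040 and an edgeR adjusted p of 0.9997. Its promoter is the third of those shown. Ndufa6 had 46.7, 52.5 and 51.7 CPM against 52.8, 55.9 and 52.5 CPM, at 0.10 (SE 0.08), where the highest shVec and the lowest shNgb value both round to 52.5. The accessory subunits Ndufb2 (0.28, SE 0.19) and Ndufb8 (0.18, SE 0.13) had overlapping groups. Ndufs4, an accessory subunit whose loss causes complex I deficiency, had -0.11 (SE 0.09).

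Ndufa12 had the lowest fold change of all members and a near-identical copy with more reads than itself. The gene (chr10:94198720-94221443 on GRCm38, plus strand) encodes an accessory subunit whose place is held during assembly by the factor Ndufaf2. The processed pseudogene Gm15920 (chr5:130188395-130188796, plus strand) aligned over its whole 402 bases to coding positions 37 to 438 of Ndufa12, at 99.5% identity with 2 differences. Counted from the first coding base, with the base of Ndufa12 first, these are A135G and T414C. The 41 bases around each are shown because only reads over one of them tell the aligned stretches apart; the differing base is in capitals.
Ndufa12, 115 to 155: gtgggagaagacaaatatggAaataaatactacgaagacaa
Gm15920, 115 to 155: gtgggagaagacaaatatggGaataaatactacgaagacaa
Ndufa12, 394 to 434: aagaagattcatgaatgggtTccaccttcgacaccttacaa
Gm15920, 394 to 434: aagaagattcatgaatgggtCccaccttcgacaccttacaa

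Across tumours, Ndufa12 was low where Gm15920 was high. Ndufa12 had 47.3, 43.2 and 23.0 CPM in shVec and 13.4, 18.7 and 30.7 CPM in shNgb, with overlapping groups and a log2 fold change of -0.85 (SE 0.38, interval -1.76 to 0.06, edgeR adjusted p 0.9997). Gm15920 had 39.2, 45.9 and 53.8 CPM in shVec and 53.6, 56.2 and 41.8 CPM in shNgb. The copy held from 45.3% to 80.1% of the reads of both. Summed, the pair had 86.5, 89.0 and 76.7 CPM in shVec and 67.0, 74.9 and 72.5 CPM in shNgb. The groups of the sum did not overlap, at 84.1 ± 6.499 and 71.5 ± 4.05 CPM, and the SD of log2 CPM over tumours was 0.16 in place of 0.71. The log2 fold change of the sum was -0.23 (SE 0.09, interval -0.43 to -0.03), with an unadjusted p of 0.026 and an edgeR adjusted p of 0.9997. How reads that fit both places were counted is not given in the sources used here, so neither single value can be read as the level of Ndufa12.

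**Figure D3:**
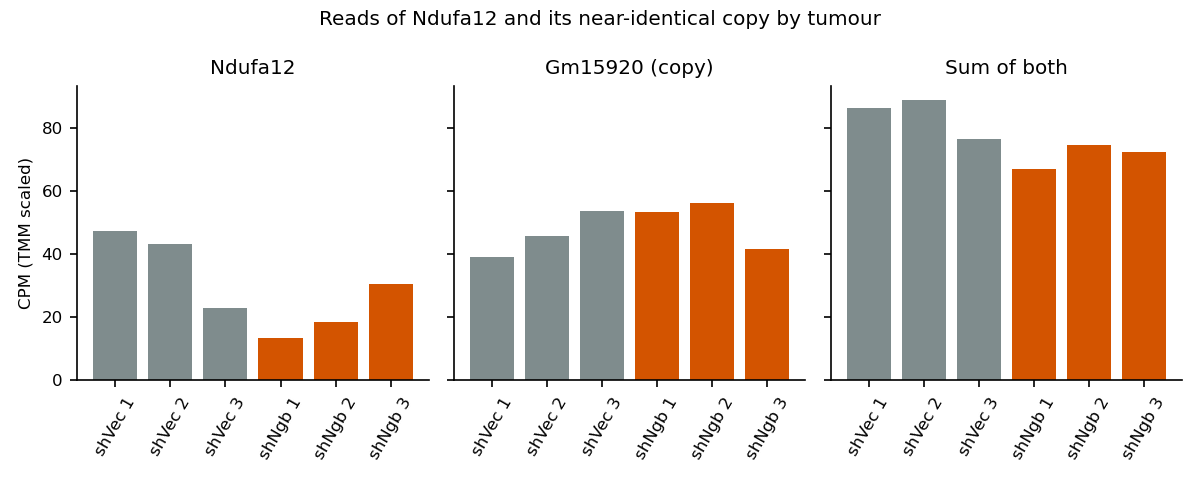
CPM (TMM scaled) of Ndufa12, of its copy Gm15920 and of their sum in each tumour, shVec in grey and shNgb in orange, bars from 0. Ndufa12 alone ranges from 13.4 to 47.3 CPM and the sum from 67.0 to 89.0 CPM, with the 3 shNgb sums below the 3 shVec sums.

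Close copies (95% identity over at least 150 bases) with reads were found for 21 members. They held over 10% of the member's reads in 6, which were Ndufa12 (165%), Cox7a2l (46.9%), Atp5l (26.0%), Atp5g1 (25.4%), Cox5b (12.3%) and Atp5h (11.7%). Apart from Ndufa12, summing moved little among these. Cox7a2l went from 0.01 to 0.02, Atp5g1 from 0.04 to 0.03 and Cox5b from 0.03 to 0.02. Atp5l went from -0.05 to -0.04 and Atp5h from -0.02 to -0.04. Levels of these members are uncertain to the extent of the copies' reads.

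Ndufa4, named for complex I and now placed in complex IV, also had groups that did not overlap. It had 86.8, 94.2 and 83.7 CPM in shVec and 99.1, 98.2 and 97.5 CPM in shNgb. The 3 shNgb values lay close together and above all shVec values, at 0.16 (SE 0.08, interval -0.02 to 0.33, unadjusted p 0.071, edgeR adjusted p 0.9997). Ndufa4l2, its relative that is induced by hypoxia-inducible factor (HIF), had 10.6, 23.6 and 12.6 CPM in shVec and 17.8, 8.47 and 8.58 CPM in shNgb. shVec 2 and shNgb 1 were high and the groups overlapped, at -0.43 (SE 0.40, edgeR adjusted p 0.9997). Without shVec 2 the log2 fold change of Ndufa4l2 was -0.0038. Ndufa4l2 made up 7.94% to 20.02% of the reads of the pair.

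Complex II is encoded by the nucleus alone and links the citric acid cycle to the chain. Sdha, its flavoprotein that oxidizes succinate, had 239, 219 and 231 CPM in shVec and 230, 232 and 228 CPM in shNgb. The means were alike, at 230 ± 9.97 and 230 ± 2.19 CPM, and the interval of the log2 fold change ran from -0.15 to 0.16. Sdhb, the iron-sulfur subunit, had 0.08 (SE 0.08), and the membrane anchors Sdhc and Sdhd had 0.01 (SE 0.09) and 0.11 (SE 0.08). The 4 fold changes were above 0 with TMM scaling, and that of Sdha was below 0 with RLE scaling (-0.0026). All 4 intervals lay within 1.25-fold.

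Complex III hands electrons from coenzyme Q to cytochrome c. Its core proteins Uqcrc1 and Uqcrc2, the Rieske iron-sulfur protein Uqcrfs1 and cytochrome c1 (Cyc1) ranged from 0.01 to 0.07. Cyc1 had 136, 140 and 137 CPM in shVec and 152, 119 and 150 CPM in shNgb, so shNgb 2 lay below and the other 2 above every shVec tumour. In Uqcrfs1 shNgb 2 was again the lowest, with 154, 139 and 135 CPM against 152, 132 and 161 CPM. The small subunits ranged from -0.09 (Uqcrq, SE 0.08) to 0.13 (Uqcrh, the hinge protein, SE 0.09). Uqcrh had 80.9, 79.7 and 67.7 CPM against 89.1, 80.7 and 79.3 CPM, with shVec 3 the low tumour. Uqcrb had 69.7 CPM in shNgb 3 and 80.2 to 98.4 CPM in the other 5 tumours.

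Complex IV holds its catalytic core in the mitochondrial genome, and its nuclear subunits come in part as pairs of a common and a tissue-restricted isoform. The common forms were abundant and differed little. Cox4i1, the common regulatory subunit, had 384, 367 and 358 CPM in shVec and 378, 355 and 351 CPM in shNgb (-0.03, SE 0.07). Cox6a1 had -0.01 (SE 0.07), Cox6b1 0.02 (SE 0.08), Cox7a2 0.04 (SE 0.07) and Cox8a -0.01 (SE 0.07). Cox7b, an X-linked subunit, had 125, 124 and 116 CPM against 144, 125 and 130 CPM (0.12, SE 0.08), with shNgb 1 the highest. Cox7c had 0.12 (SE 0.10). Of 13 tested subunits 8 had a fold change above 0 (61.5%), and with upper quartile scaling 11 of 13 did (84.6%); that scaling moved all genes from 50.9% to 56.5% above 0.

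The restricted isoforms were near or at 0. Cox4i2, the form known from lung and induced by low oxygen, had 4, 6 and 6 reads in shVec and 3, 15 and 24 reads in shNgb, or 0.038% to 0.261% of the reads of both Cox4i genes. shNgb 2 and 3 were the highest, shNgb 1 the lowest, and the gene did not pass the filter. Cox6a2, the heart and muscle form, had 17, 25 and 36 reads in shVec and 22, 21 and 13 in shNgb, 0.288% to 1.05% of its pair, at -0.68 (SE 0.44, edgeR adjusted p 0.9997). Cox7a1, also a heart and muscle form, had 13, 7 and 17 reads against 4, 23 and 17, at 0.01 (SE 0.57). In shVec 2, the tumour with the most reads of muscle markers, Cox6a2 was at 1.26 CPM, below shVec 3 (1.83), and Cox7a1 at 0.353 CPM, the second lowest of the 6.

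Forms known from the testis were fewer still. Cox6b2 had 2 to 4 reads in every library, and Cox7b2 and Cox8c had 0 in all 6. A count of 0 allows up to 3 reads, or 0.117 to 0.153 CPM in these libraries, and covers counting error only. Cox8b, a heart and muscle form, had 2 reads in shNgb 2 and 0 elsewhere. Of the processed pseudogenes, Cox6c2 had 14 reads in shNgb 2 and at most 1 elsewhere, and Ndufa11b had 0 to 3. For the ATP synthase c-ring, which the genes Atp5g1, Atp5g2 and Atp5g3 encode as the same mature protein, Atp5g2 and Atp5g3 had 201 ± 9.77 and 169 ± 6.59 CPM in shVec and 196 ± 6.08 and 174 ± 2.50 CPM in shNgb. Atp5g1 had 84.9 ± 2.22 and 87.0 ± 3.56 CPM, and the log2 fold changes of the trio ran from -0.04 (Atp5g2) to 0.04 (Atp5g3).

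**Figure D4:**
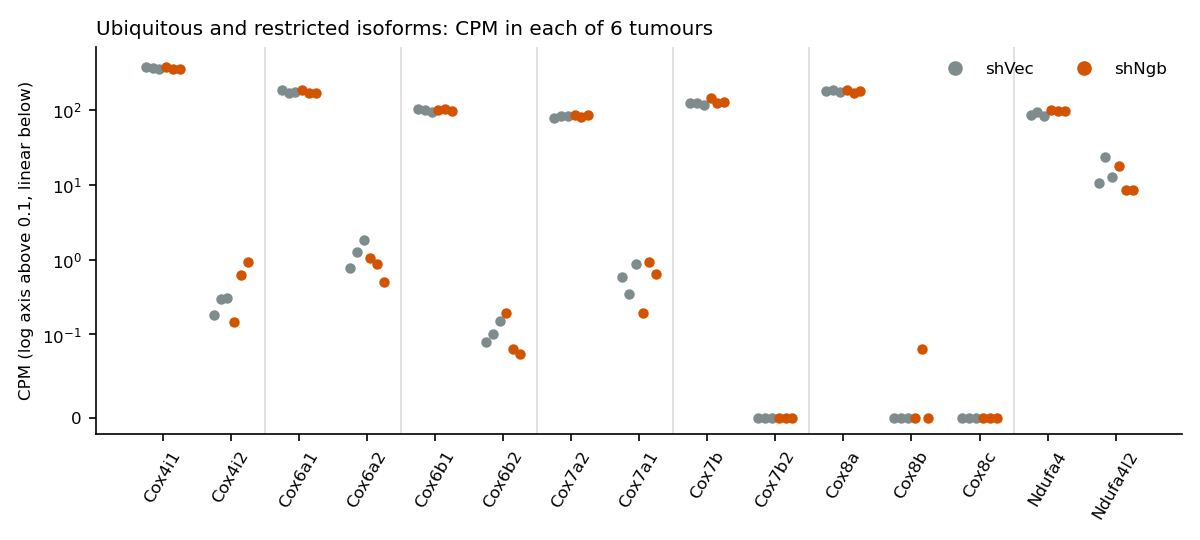
CPM of common and restricted isoforms in each tumour, shVec in grey and shNgb in orange, on a log axis above 0.1 that is linear below it; vertical lines separate families. Common forms lie between 78.6 and 384 CPM, Ndufa4l2 between 8.47 and 23.6 CPM, and the other restricted forms at 1.83 CPM or below.

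Complex V had a median SE of 0.075 over its 17 tested members, the lowest of the 5 complexes. In the F1 head and stalk, where ATP is made, Atp5b had 1437, 1353 and 1410 CPM in shVec and 1463, 1295 and 1426 CPM in shNgb, at -0.01 (SE 0.07). Atp5a1 had 1001, 924 and 873 CPM against 968, 896 and 955 CPM, at 0.01 (SE 0.08). Both were interleaved, with shVec 1 or shNgb 1 the highest. The peripheral stalk (Atp5f1, Atp5h, Atp5j, Atp5o) ranged from -0.04 to 0.08. Among the small membrane subunits, Atp5k had 24.6, 24.7 and 26.2 CPM against 26.8, 34.5 and 23.1 CPM, at 0.16 (SE 0.15), and without shNgb 2 it had -0.01. Atp5j2 had 111, 107 and 101 CPM against 116, 117 and 110 CPM (0.10, SE 0.07), with overlap at shVec 1 and shNgb 3 only. Atp5s, coupling factor B, was the only tested coding member of the complex under 10 CPM, at 6.17 ± 0.827 and 6.36 ± 0.584 CPM.

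Summed over each complex the tumours were close. Complex I summed to 2144, 2095 and 2060 CPM in shVec and 2156, 2117 and 2074 CPM in shNgb. Complex V summed to 4285, 4070 and 4070 CPM against 4311, 4039 and 4129 CPM. In both complexes the highest sum was in shNgb 1 and the shNgb tumours overlapped the shVec tumours. As shares of library reads, without TMM scaling, complex I did not overlap (0.206% to 0.210% in shVec and 0.211% to 0.215% in shNgb), and neither did complex IV (0.154% to 0.1609% and 0.1611% to 0.167%). The median log2 CPM of all 82 members, centred on the 6 tumours, was 0.06 in shNgb 1 and between -0.03 and 0.01 in the other 5. In complex III it ran from -0.05 (shVec 3 and shNgb 2) to 0.09 (shNgb 1).

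**Figure D5:**
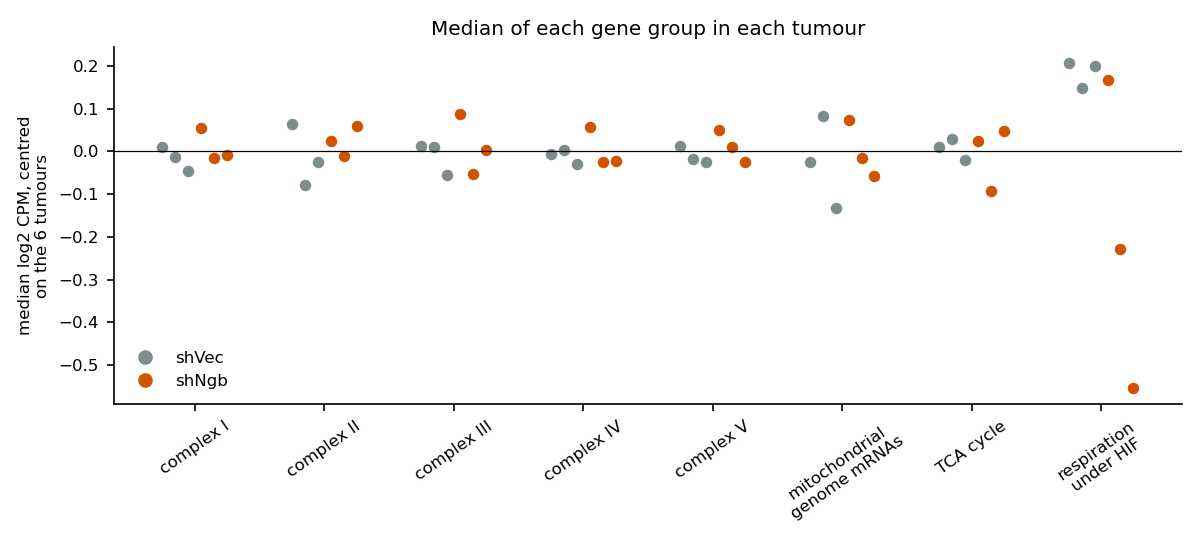
Median log2 CPM of each gene group in each tumour, centred on the 6 tumours, shVec in grey and shNgb in orange. The medians of the 5 complexes lie between -0.08 and 0.09. Those of the list named respiration under HIF, which also holds Vegfa, Ero1l and Slc2a1, lie at 0.15 to 0.21 in shVec and shNgb 1. In shNgb 2 and 3 they lie at -0.23 and -0.55.

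Genes outside the rule that serve the same complexes were also read. The acyl carrier subunit Ndufab1 (-0.02, SE 0.12), the left-out locus Ndufb1-ps (0.02, SE 0.14), the small ATP synthase subunit Usmg5 (-0.02, SE 0.08) and the ATP synthase inhibitor Atpif1 (0.02, SE 0.10) all had intervals that included 0. Among the assembly factors, 11 of 17 for complex I, 2 of 4 for complex II, 2 of 6 for complex III, 12 of 21 for complex IV and 3 of 5 for complex V had fold changes above 0. Over all genes tested the share above 0 was 50.9%. None of these 53 assembly factors reached an unadjusted p under 0.05 with edgeR, against 2.58% of all genes tested. Coa6, a copper-handling factor of complex IV, was nearest at 0.25 (SE 0.12). All 3 shNgb tumours lay above all 3 shVec tumours in Coa6 and Bcs1l, and below them in Nubpl, Ndufaf5, Lyrm7 and Cox20. Of all genes tested, 3.67% lay above and 3.43% below in this way.

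Other parts of respiration were read beside the members. Of 15 genes for mobile carriers and coenzyme Q synthesis, Coq4 had 13.5, 13.8 and 13.7 CPM in shVec and 17.7, 16.3 and 19.0 CPM in shNgb, at 0.37 (SE 0.12, unadjusted p 0.015, edgeR adjusted p 0.9997). Coq2, which attaches the side chain, went the other way at -0.21 (SE 0.10). The 13 mitochondrial messenger RNAs had a median of 0.03, with mt-Nd2 at 0.19 (SE 0.07) and mt-Nd3 at -0.83 (SE 0.35, 15 to 30 reads). In these 2 genes the groups did not overlap, with edgeR unadjusted p of 0.027 and 0.043 and adjusted p of 0.9997. They made up 15.4% of the list, against 2.58% of all genes tested at an unadjusted p under 0.05. The 14 citric acid cycle genes had a median of -0.03, and 11 of them were below 0. The share above 0 was 21.4%, against 50.9% of all genes tested and 46.5% of those at a mean of 20 CPM or more. All 14 had intervals within 1.25-fold. Of 7 tested regulators of mitochondrial biogenesis, Nrf1 had -0.15 (SE 0.08), Esrra -0.14 (SE 0.12), and Ppargc1a had 1 to 5 reads per library and was not tested.

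A list of 12 genes known to respond to HIF, most of them of respiration and mitochondria, shares Ndufa4l2 and Cox4i2 with the members. It was chosen with earlier results of these data known, so its shares below describe the list and are not a test. The summed level of the 12 genes was 2090, 2084 and 2114 CPM in shVec and 1924, 1431 and 1112 CPM in shNgb. Every shNgb sum thus lay below every shVec sum, and shNgb 1 was the nearest. Large parts of the sum came from Vegfa (mean 698 CPM in shVec and 438 in shNgb), Ero1l (317 and 208) and Slc2a1 (300 and 206). These are not genes of respiration, so the sum does not describe respiration alone. The median of the list was low in shNgb 2 and 3, with shNgb 1 within the shVec range. Single genes differed from this: Cox4i2, which was not tested, was highest in shNgb 2 and 3, and Bnip3l in shNgb 2 (64.3 CPM) lay within the shVec range of 57.9 to 67.7 CPM. The 11 genes tested had fold changes below 0 with TMM scaling (median -0.43), 4 of them at an unadjusted p under 0.05 (36.4%, against 1.22% of all genes on the lower side), and 0 were called with edgeR. In 5 of them (45.5%, against 3.43% of all genes) all 3 shNgb tumours lay below all 3 shVec tumours. These were Ero1l, an oxidase of the endoplasmic reticulum, Vegfa, a growth factor of blood vessels, the kinases of pyruvate dehydrogenase Pdk1 and Pdk3, and Higd1a. Higd1a, a HIF target of the inner mitochondrial membrane, had 54.1, 54.6 and 60.5 CPM in shVec and 52.0, 42.6 and 36.1 CPM in shNgb, at -0.37 (SE 0.13, edgeR adjusted p 0.9997). The macrophage markers were highest in the same 2 shNgb tumours (136 and 178 CPM), as were those of T and NK cells (6.46 and 12.0 CPM, against 1.07 to 4.69 in the other 4). The part of these cells in the HIF genes was not tested. The medians of the 5 complexes in these 2 tumours lay between -0.05 and 0.06.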

How the data were processed

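RNA of 3 shVec and 3 shNgb tumours was sequenced with the Illumina TruSeq RNA kit, per the labels' protocols. The kit does not mark strand. The submitters' processing notes list Bowtie 0.12.2, mm8 and mm10, with no role for any; how reads were counted, with which annotation and with what treatment of multi-mapping reads is not given in the sources used here. Raw read counts per Ensembl gene and FPKM values per sample were deposited by the authors. GENCODE M21 named 54495 of 54532 IDs. Libraries of 19630319 to 25620667 reads were compared with edgeR 4.0.16 (R 4.3.3; filterByExpr, TMM, robust quasi-likelihood F-test, Benjamini-Hochberg over 15203 genes, adjusted p under 0.05 called). FPKM served only for levels between genes. Copies were sought with blastn 2.17.0. The fit was tested on simulated data. Alternatives were RLE and upper quartile scaling, both filters, DESeq2 1.42.0, limma 3.58.1, the replicate block, each tumour left out, and summed copies, added after seeing the data for all members. Shares of reads have limits from counting error only.

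Values of 1 member stand in counts and sums but are not reported here by themselves. Members and gene lists were chosen with earlier results of these data known. The genes planned for naming were Ngb, the isoform families and the 2 genes of smallest p in each other list. In each complex they were also the 3 members of smallest p, all 4 in complex II. The members of highest and lowest fold change and of highest FPKM were added. The 2 genes are not printed for every list. Some lists, such as those for mitochondrial transcription and for import, are not described above. Ndufa6, Ndufb8, Ndufs4, the core subunits, Cyc1, Uqcrfs1, Uqcrb, Atp5a1 and Atp5s were named after their values were seen. So were Bnip3l, Vegfa, Pdk1, Pdk3, Slc2a1, Ndufaf5, Bcs1l, mitochondrial genes other than mt-Nd2 and mt-Nd3, genes with close copies and genes outside the rule.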

Additional observations from a re-analysis of the deposited data

How the results depend on the processing

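No member was called under any setting run. Against 0 genes called, DESeq2 called 5, the fit without a filter 3 and the replicate block 1. The 1 member at an unadjusted p under 0.05 became 0 with DESeq2, without a filter and with the replicate block, and 2 with upper quartile scaling and with close copies summed for all members. Same-numbered tumours had correlations of 0.26, -0.14 and -0.10 of their deviations, and tumours of unlike number -0.26 to 0.33. Deviations from a mean of 3 tumours depend on each other, so these values cannot settle whether the replicate numbers pair the tumours. With the block 49 members were higher and 0 called. Leaving out 1 tumour at a time, members higher in shNgb ranged from 41 to 55 and the complex V median from -0.015 to 0.046 (highest without shNgb 3); 0 members were called. Signs turned in the named members that follow, most of them near 0; Atp5k, at 0.16, turned without shNgb 2. Sdha was -0.0028 with DESeq2, -0.0026 with RLE and -8.5e-05 with the strict filter; Cox7a1 -0.013 with DESeq2, -0.14 with limma-voom, -0.10 with the block and -0.0012 with RLE. Ndufa2 was -0.00075 with limma-voom and -0.00030 with the block. Cox8a was 0.00014 without a filter and 0.011 with upper quartile scaling, Atp5b 0.00070 and 0.012, and Cox6a1 0.0094 with upper quartile scaling. With 1 tumour left out, ranges were -0.034 to 0.030 (Sdha), -0.059 to 0.061 (Cox7a2l), -0.0021 to 0.056 (Atp5g1), -0.14 to 0.11 (Ndufa2), -0.045 to 0.034 (Cox8a), -0.012 to 0.28 (Atp5k), -0.045 to 0.045 (Atp5b), -0.048 to 0.037 (Cox6a1), -0.47 to 0.40 (Cox7a1), -0.066 to 0.070 (Sdhc) and -0.019 to 0.064 (Cox6b1). Groups of 3 allow no finer statement than the intervals given, and under 40 reads per library, as in Cox6a2 and Cox7a1, counting limits the fold change.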
